A study of Mus musculus with 15 samples.

Results

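The vomeronasal type 1 receptors (Vmn1r), the trace amine-associated receptors (Taar) and the sweet, umami and bitter taste receptors (Tas1r and Tas2r) are chemosensory G protein-coupled receptors. Their genes are described here in RNA from mouse aortic cells sorted as macrophages. The genes were taken from the deposited count table as the protein-coding rows whose symbol starts with Vmn1r, Taar, Tas1r or Tas2r. They number 258 of 47729 rows, of which 205 are Vmn1r, 15 Taar, 3 Tas1r and 35 Tas2r genes.

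Smart-Seq2 libraries, a low-input method that amplifies full-length cDNA by PCR, were made from F4/80+ CD64+ cells of the aorta. All cells came from female Apoe dko mice fed a high fat diet for 4 weeks, and Apoe deficiency and the diet were therefore shared by both groups compared. The groups were the cells sorted as Olfr2- and the cells sorted as Olfr2+, where Olfr2 is an olfactory receptor gene. The labels describe the repeats as technical sorts of 100 to 200 cells from the pooled aortas of 4 mice, and give no age. They name no separate animals per sample, and p-values therefore reflect only how these sorts vary, which may be technical. Each of 15 columns is called here by its label, sample number and repeat letter. There were 5 columns in 3 Olfr2- samples (1, 3 and 4) and 10 columns in 3 Olfr2+ samples (2, 3 and 4).

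V1R receptors are expressed by sensory neurons of the vomeronasal organ, where they detect small molecules such as pheromones and signal through an inhibitory G protein to the channel Trpc2. TAARs detect amines in neurons of the olfactory epithelium and use the same cyclic AMP cascade as odorant receptors. Tas1r1 pairs with Tas1r3 as the umami receptor and Tas1r2 with Tas1r3 as the sweet receptor, while the Tas2r proteins detect bitter compounds. Taste cells couple these receptors through gustducin and phospholipase C to the channel Trpm5, and tuft cells of other epithelia use much of the same pathway.

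Many of these genes are near copies of each other, which bears on whether a read can be given to one of them. Sequences from the GENCODE M21 transcripts of build GRCm38 are shown for a set of Vmn1r genes on chromosome 7 that are almost identical and for a set of Taar7 genes on chromosome 10 that are not. Positions are counted from 1 at the first base of the start codon, and sequences run 5′ to 3′. The Vmn1r lines give bases 306 to 365 of a coding sequence of 921 bases, and capitals mark the bases that differ from Vmn1r107.
Vmn1r107: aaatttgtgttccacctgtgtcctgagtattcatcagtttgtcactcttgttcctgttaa
Vmn1r155: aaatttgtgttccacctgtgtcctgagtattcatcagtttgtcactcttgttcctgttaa
Vmn1r130: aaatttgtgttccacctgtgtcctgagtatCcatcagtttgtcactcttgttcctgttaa
Vmn1r95: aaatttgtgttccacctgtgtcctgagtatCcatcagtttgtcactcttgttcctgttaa
Vmn1r143: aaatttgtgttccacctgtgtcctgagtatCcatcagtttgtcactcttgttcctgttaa

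Over the whole coding sequence, Vmn1r155 had 0 differences from Vmn1r107, Vmn1r130 had 1, Vmn1r95 had 5 and Vmn1r143 had 6. Vmn1r143 had 12 counts over all 15 columns and the other 4 of these genes had 0. The Taar7 lines give bases 1 to 60 of a coding sequence of 1074 bases, and capitals mark the bases that differ from Taar7d.
Taar7d: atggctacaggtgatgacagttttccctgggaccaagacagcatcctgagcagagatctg
Taar7f: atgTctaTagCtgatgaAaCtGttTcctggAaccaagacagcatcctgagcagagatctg
Taar7e: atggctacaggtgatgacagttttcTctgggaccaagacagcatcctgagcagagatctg
Taar7b: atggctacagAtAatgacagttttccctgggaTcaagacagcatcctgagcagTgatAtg

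Taar7f, Taar7e and Taar7b differed from Taar7d at 62, 67 and 65 bases of the coding sequence. Taar7d had 63 counts over all columns, Taar7f 47, Taar7b 33 and Taar7e 28. None of the 4 Taar7 genes shown was at 0, in contrast to 4 of the 5 Vmn1r genes shown. Both sets were picked as examples. Many 50-base windows of the Taar7 coding sequences also occur in a transcript of another gene. Their share was 29.6% in Taar7d, 51.4% in Taar7f, 54.0% in Taar7e and 40.5% in Taar7b, so these counts are uncertain in part.

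The targeted gene went against the labels: Olfr2 had 76, 34 and 35 counts in the Olfr2- samples and 1, 9 and 8 in the Olfr2+ samples, so the groups below are the libraries labelled Olfr2- and Olfr2+. The columns held between 29.9 and 95.6 M counts each (M, 1e+06). All 5 columns labelled Olfr2- and 3 labelled Olfr2+ (3D, 4A and 4B) lay below 60 M, and the 7 columns above 60 M were all labelled Olfr2+, so depth and label cannot be told apart above that total. All 10 macrophage markers looked at had counts in every column, with a summed level of 1731 to 8612 CPM (counts per 1e+06 counts of the column) in the Olfr2- columns, 2712 to 3543 in the Olfr2+ columns below 60 M and 7372 to 13973 in those above. All 5 fibroblast markers were higher in Olfr2+, and their sum was 1938 to 3459, 2044 to 4176 and 24723 to 28527 CPM in the same 3 sets of columns. The part of the depth and of these cells in the results below was not tested. The 4 markers of olfactory and vomeronasal neurons looked at were mixed. Trpc2 was at 0 in all 15 columns, while Omp and Gnal had counts in all 15 and Cnga2 in 11.

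Receptor transcripts were scarce in both groups, and a typical gene was counted in a few of the columns. The 258 genes together had 9765 counts, of which 6687 were in the Olfr2- columns and 3078 in the Olfr2+ columns. In the Olfr2- samples 1, 3 and 4 their summed level was 65.4, 24.5 and 35.3 CPM. In the Olfr2+ samples 2, 3 and 4 it was 2.15, 4.09 and 17.5 CPM. The samples of the groups did not overlap, with Olfr2+ sample 4 nearest to Olfr2-.

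By column the labels did overlap. The Olfr2- columns stood at 65.4 (1A), 4.28 (3A), 58.4 (3B), 22.5 (4A) and 52.0 CPM (4B). The Olfr2+ columns below 60 M stood at 18.2 (3D), 23.6 (4A) and 9.81 CPM (4B), and the 7 above 60 M at 0.145 to 4.94 CPM. Olfr2- 3A, a repeat of the same numbered sample as 3B, thus held less than any Olfr2+ column below 60 M. Of the columns above 60 M, Olfr2+ 3A held more than Olfr2- 3A.

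The Vmn1r genes held 4547 counts in the Olfr2- and 1143 in the Olfr2+ columns. Their summed level was 46.8, 14.7 and 25.3 CPM in the Olfr2- samples and 0.734, 1.81 and 5.68 CPM in the Olfr2+ samples. The Taar genes were at 5.31, 2.32 and 2.39 CPM against 0.0550, 0.139 and 0.311 CPM. Neither family overlapped between the sample groups, and Taar had 0 counts in the columns Olfr2+ 2D and 3C. A total of 0 counts in those columns allows up to 3 counts, or 0.0333 CPM in 2D and 0.0395 CPM in 3C, where the limit covers counting error only.

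The 3 Tas1r genes were at 4.43, 3.96 and 2.84 CPM in the Olfr2- samples and 0.0824, 0.293 and 0.786 CPM in the Olfr2+ samples, again without overlap. The bitter receptor family behaved differently in level: the Tas2r genes were at 8.76, 3.55 and 4.78 CPM in Olfr2- and 1.28, 1.84 and 10.7 CPM in Olfr2+, so these groups overlapped. Most of the Tas2r counts in Olfr2+ belonged to Tas2r126 and Tas2r143. Without these genes, a choice made after their values were seen, the family was at 8.53, 2.03 and 4.71 CPM against 0.113, 0.348 and 0.845 CPM, with no overlap. The difference in mean log2 CPM between the groups, Olfr2+ minus Olfr2-, was -3.72 for Vmn1r, -4.53 for Taar, -3.79 for Tas1r and -0.85 for Tas2r. With TMM scaling (edgeR's trimmed mean of M-values) these differences were -2.56, -3.37, -2.62 and, with the sign turned for Tas2r, 0.31. Without the 2 genes and with the totals as scaling, that of Tas2r was -3.76. Among the 8 columns below 60 M the Vmn1r, Taar and Tas1r differences were -1.63, -2.42 and -1.50 and that of Tas2r -0.01.

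**Figure D1:**
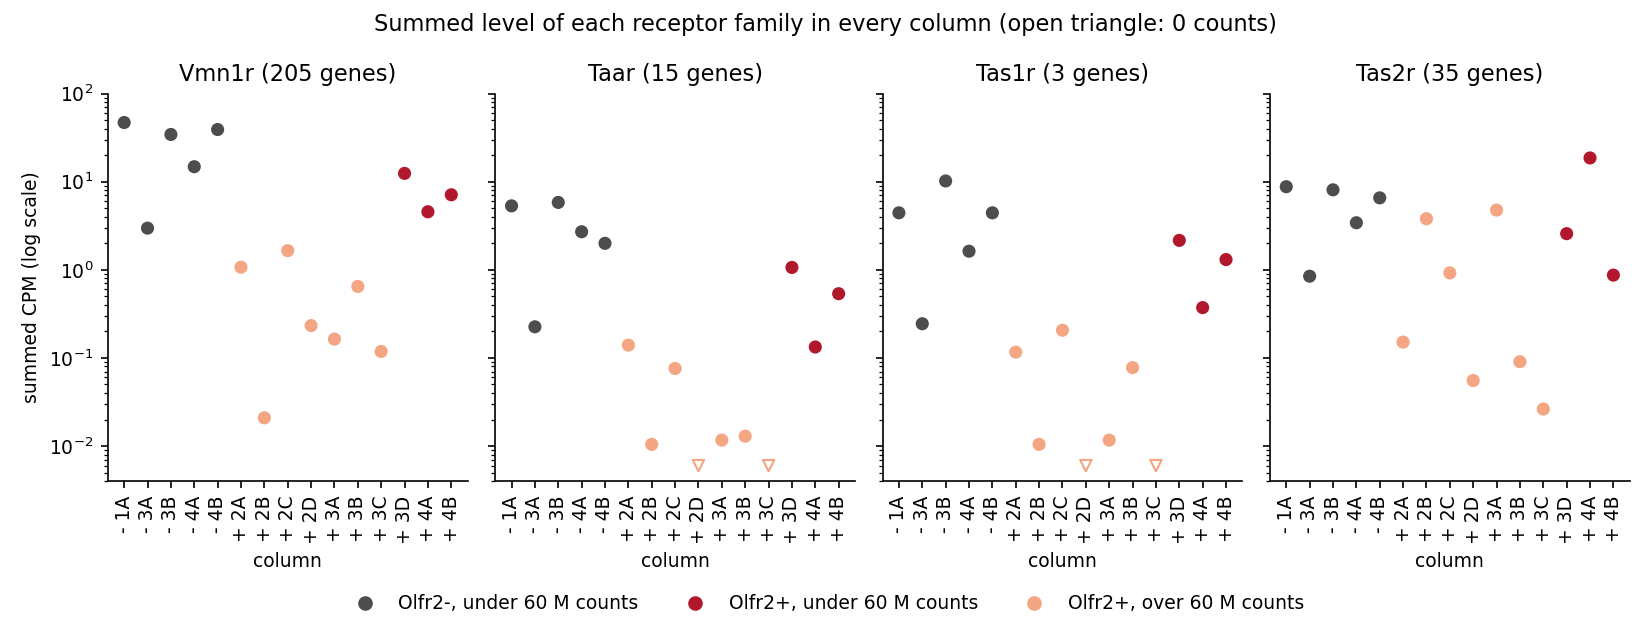
Summed CPM (log scale) of the Vmn1r, Taar, Tas1r and Tas2r genes in each of the 15 columns, by label, with colours for the columns below and above 60 M counts and open triangles for 0 counts. Olfr2- 3A lies among the Olfr2+ columns in each panel, and the Tas2r panel has Olfr2+ 4A at 18.6 CPM, above every other column.

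Levels of different genes were compared per kilobase of coding sequence, since Tas1r genes are longer than the single-exon receptors. On this scale the Olfr2- samples had 0.372 to 0.581 CPM per kilobase of coding sequence in Tas1r, 0.148 to 0.340 in Taar, 0.108 to 0.266 in Tas2r and 0.0776 to 0.247 in Vmn1r. The Tas1r range lay above those of the other 3 families, which overlapped each other. The Olfr2+ samples had 0.0108 to 0.103 in Tas1r, 0.00351 to 0.0199 in Taar, 0.0389 to 0.326 in Tas2r and 0.00387 to 0.0300 in Vmn1r. The Tas2r value of 0.326 was that of Olfr2+ sample 4 and rested on Tas2r143 in column 4A. Without Tas2r126 and Tas2r143 that sample had 0.0271 CPM per kilobase of coding sequence in Tas2r.

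At least 1 count in any column was found for 227 of the 258 genes (88.0%), and 31 genes, 29 Vmn1r and 2 Tas2r, were at 0 in all 15. Over the whole table, 42769 of 47729 rows had a count, so detection of the receptors was near that of all rows. All 15 Taar and all 3 Tas1r genes had a count somewhere. A typical gene was seen in few columns, with a median of 4 and a maximum of 12 of 15. There were 99 genes with a count in at least 5 columns and 13 in at least 8. Counts were found only in Olfr2- columns for 26 genes, only in Olfr2+ columns for 18 and under both labels for 183. The labels had 5 and 10 columns of unlike depth, and the same split was not made over all rows. It is therefore not read as a trait of the receptors. All 5 Olfr2- columns had counts of 10 genes, 5 Vmn1r, 3 Tas1r and 2 Tas2r.

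The counts were clumped. Of 3870 pairs of a gene and a column, 971 (25.1%) had a count, with a median of 4. A single count was seen in 246 pairs, while 258 pairs with at least 10 counts held 76.7% of all receptor counts. For 128 genes over 50% of the gene's counts came from 1 column. The 5 pairs with at least 100 counts were Tas2r143 in Olfr2+ 4A (663 counts), Tas2r126 in Olfr2+ 3A (403) and 2B (362), and Tas1r1 in Olfr2- 3B (250) and 1A (100).

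The number of receptor genes with a count was 149, 57, 108, 84 and 121 in the Olfr2- columns 1A, 3A, 3B, 4A and 4B. It ran from 5 to 100 in the Olfr2+ columns, with a median of 47. When each column was thinned to the smallest total of 29.9 M, the expected numbers were 48.8 to 148.7 in Olfr2- and 2.47 to 97.3 in Olfr2+. The Olfr2+ columns below 60 M reached 51.2 to 97.3 genes and those above 60 M 2.47 to 42.1 on the thinned scale. Columns with more counts therefore did not hold more receptor genes. Olfr2+ 2B, the deepest, had counts of 5 of the 258.

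**Figure D2:**
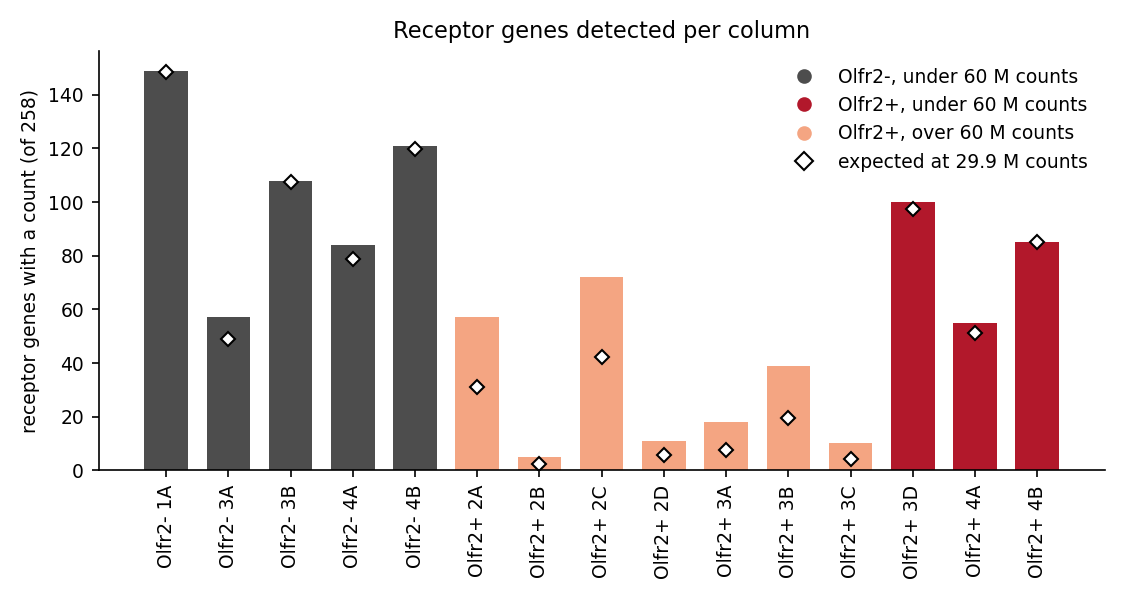
Number of the 258 receptor genes with at least 1 count in each of the 15 columns, as counted (bars) and as calculated for a common total of 29.9 M (diamonds), by label. Olfr2- 1A has the most at 149, and Olfr2+ 2B the fewest at 5.

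The labels give each column its own library name and a second name that some columns share, 8 in all, and columns with a common second name held the same receptor genes in part. Olfr2- 3A and 3B had 32 genes in common, which was 56.1% of the genes in 3A and 29.6% of those in 3B. Olfr2- 4A and 4B shared 50 genes, 59.5% and 41.3% of their lists. Olfr2+ 4A and 4B shared 16, or 29.1% and 18.8%. The 6 pairs with a common second name on the same side of 60 M had a median of 10 genes in common. The 22 pairs from other samples of the same label and the same side of 60 M also had a median of 10.

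Vmn1r genes with copies elsewhere were the ones most often at 0. A coding sequence was found in GENCODE M21 for 257 of the 258 genes (223 matched by gene identifier and 35 by symbol in all), and the share of its 50-base windows that also occur in a transcript of another gene was counted. In 37 genes, all Vmn1r, at least 90% of windows were shared. Of these, 22 (59.5%) were at 0 in all columns, the median total was 0 counts and the highest 44. That highest total was of Vmn1r216, matched by symbol. Its windows were shared with another entry of the same symbol, which need not be a separate gene. Among the 220 genes below 90%, 8 (3.64%) were at 0 and the median total was 26 counts. In the 25 genes with every window shared, which include Vmn1r107, Vmn1r155, Vmn1r130 and Vmn1r95 printed above, 20 (80%) were at 0. Chromosome 7, which holds 103 of the 205 Vmn1r genes, held 26 of the 31 genes at 0. Counts of the Vmn1r genes with copies, and in part those of the Taar7 genes shown above, are therefore uncertain. In such Vmn1r genes 0 counts do not show that no transcript was present.

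**Figure D3:**
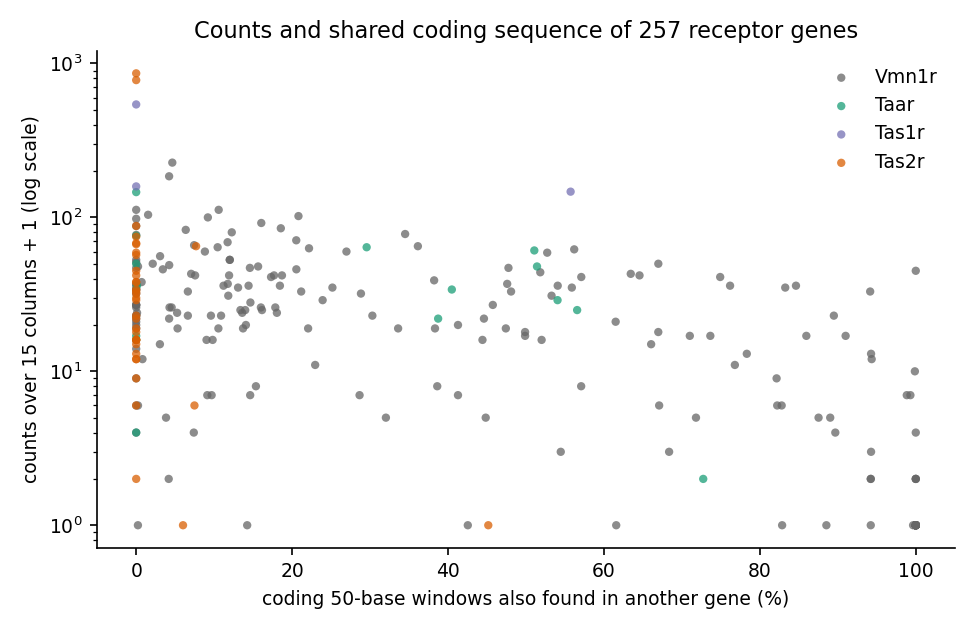
Total counts over the 15 columns of each receptor gene (vertical, counts plus 1 on a log scale) against the percent of its 50-base coding windows found in transcripts of another gene (horizontal), by family. At 90% or more shared, 22 of 37 genes lie at 0 counts, and below 90% 8 of 220 do.

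Olfr2+ and Olfr2- were compared for every gene with edgeR's quasi-likelihood test on the 3 samples per label, with Benjamini-Hochberg adjustment over all 24362 genes tested. At an adjusted p under 0.05, 0.46% of all genes tested were lower in Olfr2+ and 1.12% higher. The filter on low counts left 31 of the 258 receptor genes (20 Vmn1r, 3 Taar, 3 Tas1r and 5 Tas2r). Of these, 4 were lower in Olfr2+ (Taar3, Taar4, Vmn1r212 and Vmn1r49) and 0 were higher, and 19 of the 31 (61.3%) had an unadjusted p under 0.05, against 32.1% of all genes tested. The filter asked for enough counts in at least 3 samples, whatever their label. Tas2r126, Tas2r143 and Vmn1r193 passed it with samples of both labels. Most of the genes with few counts passed where 1 group was high: in 22 of the 31 all Olfr2+ samples lay below all Olfr2- samples. Small p-values were thus favoured in advance among those 31, and the counts over them say nothing of the others. With DESeq2, 18 of 91 receptor genes tested were lower and 1, Tas2r126, was higher, where 9.37% of all 28701 genes tested were lower and 14.0% higher. At an unadjusted DESeq2 p under 0.05 there were 40 of the 91 (44.0%), against 40.2% of all genes tested.

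Over all genes with a count, without that filter, the 3 Olfr2+ samples lay all below the 3 Olfr2- samples for 44 of 227 receptor genes (19.4%), against 23.8% of all 42769 rows with a count. They lay all above for 2 receptor genes, Vmn1r230 and Vmn1r181, or 0.881%, against 3.79% of all rows. The share of receptor genes below was thus near, and under, that of the table as a whole. Vmn1r230 rested on 3 counts in all and Vmn1r181 on 18, of which 12 were in Olfr2+ 4A.

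Taar3 (ENSMUSG00000069708.3), a receptor for volatile amines, had 21, 0, 42, 12 and 0 counts in the Olfr2- columns 1A, 3A, 3B, 4A and 4B. It had 0 in all 10 Olfr2+ columns. The groups did not overlap by sample, at 0.448 ± 0.266 CPM (SD, n = 3) against 0. With counts pooled by group, Taar3 was at least 92.9-fold lower in Olfr2+, taking 3 counts over all 10 Olfr2+ columns as the floor. That limit covers counting error only. It rests largely on the columns above 60 M, where depth and label cannot be told apart. The fitted value, which depends on the prior count here, was -8.12 on the log2 scale (SE 1.85, edgeR adjusted p = 0.0382).

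Taar4 (ENSMUSG00000069707.1), which responds to phenylethylamine, had 41, 0, 33, 38 and 28 counts in the Olfr2- columns. In Olfr2+ it had 2 counts in 2A and 1 each in 3A, 3D and 4B. Olfr2- 3A was at 0 like most Olfr2+ columns, while the other 4 Olfr2- columns were far above all of them. The samples were at 0.875 ± 0.479 CPM against 0.00922 ± 0.00494 CPM (SD, n = 3 each). The fitted change was -5.40 on the log2 scale (SE 1.43, edgeR adjusted p = 0.0499).

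Vmn1r212 (ENSMUSG00000071490.3) had 38, 6, 11, 8 and 27 counts in the Olfr2- columns and 1 count in Olfr2+, in 2D. It was the called gene seen in every Olfr2- column, at 0.640 ± 0.543 CPM against 0.000916 ± 0.00159 CPM (SD, n = 3 each). The fitted change was -6.91 on the log2 scale (SE 1.66, edgeR adjusted p = 0.0422). Vmn1r49 (ENSMUSG00000095932.2), the receptor also known as V1rb2, had 29, 0, 30, 0 and 21 counts in Olfr2- and 2 counts in Olfr2+, both in 3A. Each Olfr2- sample had it in 1 column only. It was at 0.529 ± 0.367 CPM against 0.00245 ± 0.00424 CPM (SD, n = 3 each), and the fitted change was -5.99 on the log2 scale (SE 1.57, edgeR adjusted p = 0.0494).

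None of the 4 calls held among the 8 columns below 60 M, where Olfr2+ sample 2 drops out and 2 Olfr2+ samples remain. In that setting 0 of all 29989 genes tested passed in either direction, so the loss of these calls is not particular to the receptors. There the log2 fold changes were -7.39 for Taar3, -4.39 for Taar4, -7.79 for Vmn1r212 and -7.56 for Vmn1r49, and the edgeR adjusted p-values were 0.429, 0.411, 0.411 and 0.422. Leaving out any 1 sample ended the calls of Vmn1r212 and Vmn1r49. The call of Taar3 held only without Olfr2- sample 4 (edgeR adjusted p = 0.0462) and that of Taar4 only without Olfr2+ sample 4 (0.0497).

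**Figure D4:**
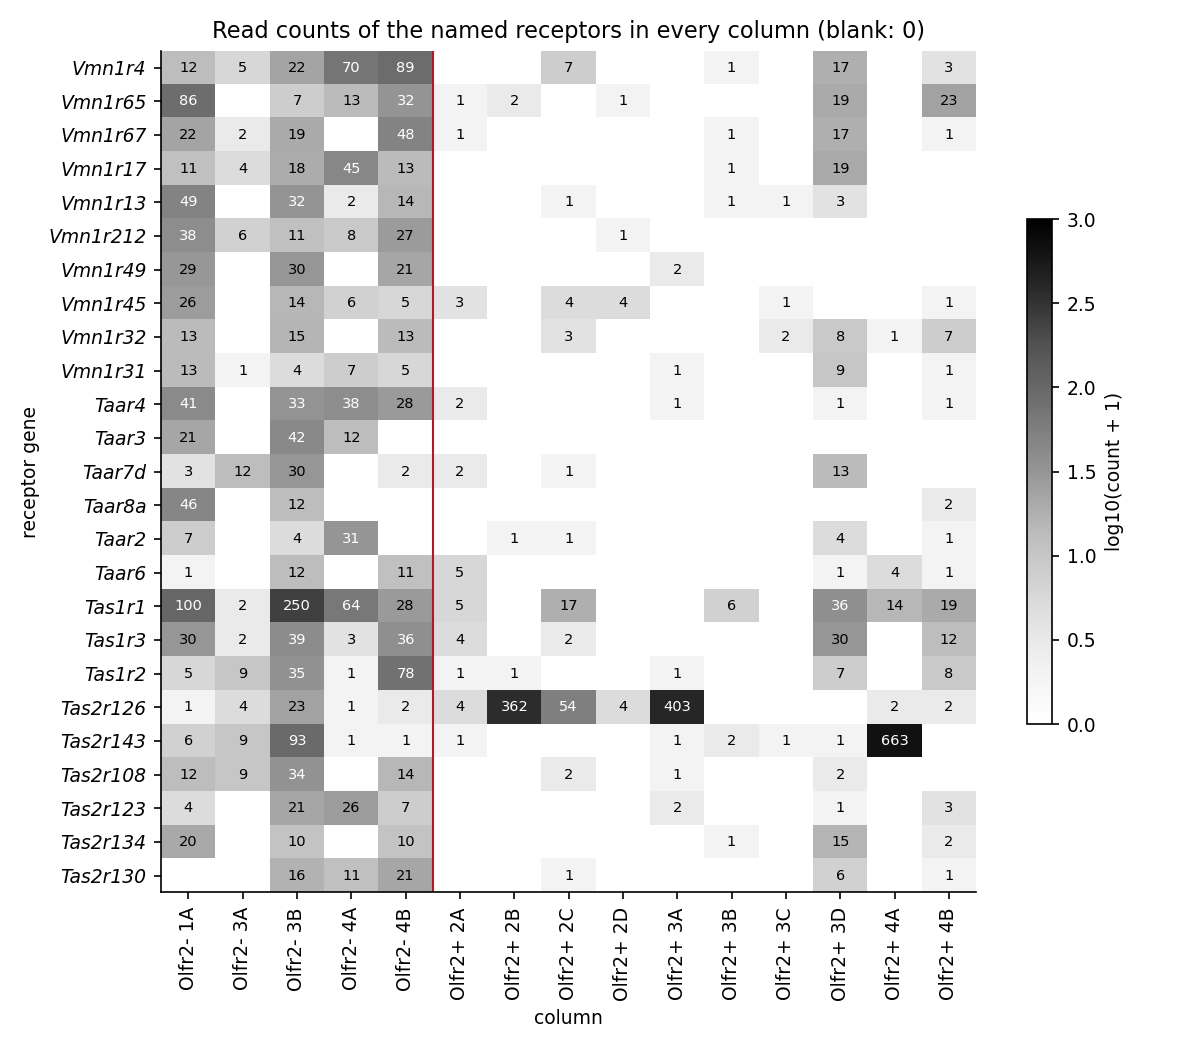
Read counts of 25 receptor genes (vertical, by family) in each of the 15 columns (horizontal), printed in each cell and shaded by log10 of the count plus 1, with a line between the labels and blank cells for 0. Taar3, Taar4, Vmn1r212 and Vmn1r49 have at most 2 counts in any Olfr2+ column, while Tas2r126 is high in Olfr2+ 2B and 3A and Tas2r143 in Olfr2+ 4A.

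The other Vmn1r genes named were those seen in the most columns, and none of them passed the test. Vmn1r4 had 12, 5, 22, 70 and 89 counts in the Olfr2- columns and at most 17 in any Olfr2+ column, in 3D (log2 fold change -3.33, SE 1.30, edgeR adjusted p = 0.104). Vmn1r65 had 86, 0, 7, 13 and 32 in Olfr2- and 0 to 23 in Olfr2+, with 23 in 4B and 19 in 3D (-2.10, SE 1.36, edgeR adjusted p = 0.255). Its Olfr2+ columns below 60 M thus lay within the Olfr2- range. Vmn1r13 had 49, 0, 32, 2 and 14 in Olfr2- and at most 3 in Olfr2+ (-5.12, SE 1.48, edgeR adjusted p = 0.0634). Vmn1r45, Vmn1r67 and Vmn1r17 had log2 fold changes of -3.01, -3.07 and -3.01, and Vmn1r32 of -1.34, with edgeR adjusted p-values from 0.122 to 0.419. Vmn1r31, with 13, 1, 4, 7 and 5 counts in the Olfr2- columns and 9 in Olfr2+ 3D, was not tested.

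Of the other Taar genes named, Taar2, Taar6, Taar7d and Taar8a, none had enough counts to be tested. Taar8a had 46 and 12 counts in Olfr2- 1A and 3B, 0 in the other 3 Olfr2- columns and 2 counts in Olfr2+, in 4B. Taar7d, whose first coding bases are shown above, had 3, 12, 30, 0 and 2 counts in Olfr2- and 13 in Olfr2+ 3D, with 2 in 2A and 1 in 2C. These counts were again scattered among columns. Taar1, the trace amine receptor also known outside the nose, had 8 counts in Olfr2- 4B, 5 in Olfr2+ 3D, 3 in Olfr2+ 4B and 0 elsewhere. It was named for that role after its values were seen.

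The umami subunit Tas1r1 was the Tas1r gene with the most counts. It had 100, 2, 250, 64 and 28 counts in the Olfr2- columns, and 36, 14 and 19 in the Olfr2+ columns 3D, 4A and 4B. In the other Olfr2+ columns it had 5 in 2A, 17 in 2C, 6 in 3B and 0 elsewhere. Olfr2- 3A was again low, and the samples did not overlap, at 2.50 ± 1.10 against 0.235 ± 0.225 CPM (SD, n = 3 each). The difference did not pass the test (log2 fold change -2.48, SE 1.37, edgeR adjusted p = 0.195).

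The sweet subunit Tas1r2 had 5, 9, 35, 1 and 78 counts in the Olfr2- columns and at most 8 in any Olfr2+ column (log2 fold change -2.74, SE 1.32, edgeR adjusted p = 0.153). The shared subunit Tas1r3 had 30, 2, 39, 3 and 36 counts in Olfr2- and 0 to 30 in Olfr2+, with 30 in 3D and 12 in 4B (-1.73, SE 1.20, edgeR adjusted p = 0.287). All 3 Tas1r genes had counts in all 5 Olfr2- columns. In GENCODE M21, Tas1r2 shares 1510 exon bases (49.6% of its own) with Gm21969 on the same strand, so its counts are uncertain, while Tas1r3 shares 36 exon bases (1.02%) with Dvl1 on the opposite strand.

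The bitter receptors Tas2r126 and Tas2r143 had high counts in 1 to 3 of the Olfr2+ columns. Tas2r126 (ENSMUSG00000048284.4) had 362 counts in Olfr2+ 2B, 403 in 3A and 54 in 2C, with 0 to 4 in the other 7 Olfr2+ columns. It had 1, 4, 23, 1 and 2 in the Olfr2- columns. It made up 98.6% of all receptor counts in Olfr2+ 2B and 95.3% in 3A. The samples were at 0.130 ± 0.162 against 0.901 ± 0.745 CPM (SD, n = 3 each), and the difference did not pass the test (log2 fold change 3.96, SE 1.55, edgeR adjusted p = 0.104). With DESeq2 it did (4.16, adjusted p = 0.0213), against a range of edgeR adjusted p-values of 0.0603 to 0.744 over the alternatives.

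Tas2r143 (ENSMUSG00000046652.3), which lies in a cluster with Tas2r126 and Tas2r135, had 663 counts in Olfr2+ 4A and 0 to 2 in the other 9 Olfr2+ columns. It had 6, 9, 93, 1 and 1 counts in the Olfr2- columns. It made up 74.7% of the receptor counts in Olfr2+ 4A. At 0.474 ± 0.633 against 3.28 ± 5.67 CPM (SD, n = 3 each), it had a fitted change of 3.44 on the log2 scale (SE 1.99, edgeR adjusted p = 0.212). Without Olfr2+ sample 4 it was -4.42.

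Few of the neighbouring genes were high in the same columns. Olfr458, near Tas2r126 in GENCODE M21, had 422 counts in Olfr2+ 3A, but 38 in 2B against 63 in 3B, where Tas2r126 had 0. Its highest value was 7499 in Olfr2- 3A, where Tas2r126 had 4. Gm44470, Olfr457 and Olfr456, also near Tas2r126, had at most 1 count in Olfr2+ 2B and 3A. The antisense gene 2010310C07Rik, near Tas2r143, had its highest count, 1304, in Olfr2+ 4A like Tas2r143, and 786 in 2C, where Tas2r143 had 0. Epha1 on that side was highest in Olfr2+ 2D, with 11120 counts and 616 in 4A. Tas2r135 had 26 counts in Olfr2- 1A, 4 in Olfr2- 4A, 1 in Olfr2+ 3C and 0 elsewhere. The counting is not stated to use strand, so where genes overlap on opposite strands their reads cannot be told apart. Whether Tas2r143 and 2010310C07Rik overlap is not given here.

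The other bitter receptors named by the rule were counted mostly in Olfr2-. Tas2r108 had 12, 9, 34, 0 and 14 counts in the Olfr2- columns and 5 in all Olfr2+ columns together (log2 fold change -4.43, SE 1.40, edgeR adjusted p = 0.0748). Tas2r123 had 4, 0, 21, 26 and 7 in Olfr2- and at most 3 in any Olfr2+ column (-3.25, SE 1.42, edgeR adjusted p = 0.127). Neither passed the test. Tas2r130, with 0, 0, 16, 11 and 21 counts, and Tas2r134, with 20, 0, 10, 0 and 10, were not tested. In Olfr2+ 3D these genes had 6 and 15 counts. Some bitter receptors outside that rule, looked up after their values were seen, had more counts in Olfr2+. Tas2r102 had 36 counts in Olfr2- and 51 in Olfr2+, of which 44 were in 3D. Tas2r144 had 4 against 10, Tas2r118 7 against 8, Tas2r137 0 against 5 and Tas2r107 3 against 5. In sum the family without Tas2r126 and Tas2r143 was higher in Olfr2-, as given above.

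The signalling partners of these receptors were a mixed set. Of the V1R list, 5 of 6 genes were tested and 0 passed in either direction with edgeR or DESeq2, and 0 had an unadjusted p under 0.05. The channel Trpc2 was at 0 throughout, while the inhibitory G protein subunit Gnai2, used by many cell types, was at 455 ± 221 against 541 ± 105 CPM (SD, n = 3 each). Of the 14 genes for TAAR and odorant transduction, all tested, 1 was lower in Olfr2+. That gene was Rtp2, which helps odorant receptors reach the cell surface (log2 fold change -5.79, SE 1.53, edgeR adjusted p = 0.0495). Its call ended below 60 M (-4.78, edgeR adjusted p = 0.411) and whenever 1 sample was left out. Omp, an olfactory neuron marker, had 24912 counts in Olfr2+ 2A and 1 to 783 in the others. Of 13 taste genes, 11 were tested and 1, Entpd2, was higher in Olfr2+. This ATP-degrading ectoenzyme is found in glial-like taste cells and also in other tissues, and it was at 11.9 ± 5.53 against 245.6 ± 178 CPM (SD, n = 3 each). The fitted change was 5.69 on the log2 scale (SE 1.21, edgeR adjusted p = 0.0295), and among the columns below 60 M 2.24 (edgeR adjusted p = 0.574). The tested genes had a median log2 fold change of 2.50 in the V1R list, 1.04 in the TAAR list and 2.46 in the taste list, against 0.24 over all genes. Below 60 M the direction turned, with medians of -0.56 over 5 V1R genes, -0.76 over 13 TAAR genes and -0.62 over 12 taste genes, against -0.43 over all genes.

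Markers of other cells did not follow the receptors in a single way. The sum of the 4 olfactory and vomeronasal neuron markers was 4.18 to 56.1 CPM in the Olfr2- columns, 8.74 to 24.99 in the Olfr2+ columns below 60 M and 0.608 to 313 in those above. The 4 tuft and taste cell markers summed to 2.84 to 13.7, 2.08 to 40.7 and 0.233 to 142 CPM. Gnat3, the gustducin subunit, had 761 counts in Olfr2+ 2B and 0 to 15 elsewhere. In bulk samples, fewer cells of a type and less RNA per cell cannot be told apart.

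Other gene families that are rarely expressed outside their own tissue gave values of the same kind beside these receptors. The 1125 protein-coding olfactory receptor genes other than Olfr2 summed to 182 to 342 CPM in Olfr2- and to 8.95 to 53.2 CPM in Olfr2+ samples. The 124 Vmn2r genes, the other vomeronasal receptor family, were at 28.2 to 78.5 against 2.56 to 9.21 CPM. The 56 Krtap genes, which encode hair proteins, were at 3.39 to 17.0 against 0.162 to 1.85 CPM. None of these 3 families overlapped between the sample groups. The 7 formyl peptide receptor (Fpr) genes, which are used by leukocytes and by vomeronasal neurons, did overlap, at 37.4 to 196 against 13.2 to 62.5 CPM. The 122 Vmn1r, Taar and Tas2r rows not classed as protein-coding were at 10.1 to 19.8 against 0.355 to 2.80 CPM, also without overlap. All pseudogene rows together took 0.532 to 0.879% of the counts of the Olfr2- columns, 0.474 to 0.564% in Olfr2+ below 60 M and 0.283 to 0.373% above. Whether the receptors differ from these families was not tested, and the part of what moves all of them in the receptor values was not tested either.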

How the data were processed

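The authors deposited raw read counts per gene as whole numbers in 15 columns. STAR 2.7.1, DRAGEN, DESeq2 1.34 and the build GRCm39 appear in the submitters' processing notes with no role. Strand use and the annotation are not given in the sources here. Smart-Seq2 carries no molecular identifiers, so limits cover counting error only.

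The labels do not say what the number and letter of a title stand for. They were taken as sample and repeat, since this yields the stated 3 per group. Counts were summed per sample (30.5 to 363.9 M) and tested with edgeR 4.0.16 in R 4.3.3 (TMM scaling, edgeR's expression filter, quasi-likelihood test, Benjamini-Hochberg adjusted p under 0.05). CPM used the total of all rows. DESeq2 1.42.0 was an alternative, among others given in the closing section. On simulated data over 24362 genes for this comparison, the test called 0, 1, 16 and 35 of 50 genes changed by 1, 3, 5 and 7 on the log2 scale, and 1 of 24162 unchanged genes. The changed genes were drawn only from those with a mean above 10 CPM. No receptor gene was left at that level, so these numbers do not describe recovery of the receptor genes. No genome coordinates are given, because the annotation supplied (GENCODE M21, GRCm38) is of another build. Its positions served only for chromosomes, coding sequences, overlaps and neighbours.

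The genes, lists and the 60 M division were chosen with earlier results of these data known. Named were the genes that passed the test (at most 12 per direction), the 8 Vmn1r, 4 Taar and 6 Tas2r genes with counts in the most columns, all Tas1r genes, and per family the gene with the highest CPM in any column. Of the signalling lists, those that passed and some of the most abundant were named.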

Additional observations from a re-analysis of the deposited data

Results flagged for a closer look

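In the 10 Olfr2+ columns, the summed Tas2r level of column 4A was 18.6 CPM and stood far from the others, the nearest being 4.76 CPM. The gap made up 0.745 of the whole range, against a critical value of 0.466 for 10 columns. Tas2r143 gave 663 of the counts of that column. The summed Taar level of Olfr2+ 3D, 1.06 CPM, also stood apart from the nearest at 0.535 CPM, with a gap of 0.497 of the range. Olfr2+ 3D lies below 60 M counts, and its 36 Taar counts came from 7 genes. Among 10 groups of values looked at, chance marks about 1 in 20.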

How the results depend on the processing

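The main test found 273 genes higher and 112 lower in Olfr2+. Higher and lower calls were 4017 and 2690 with DESeq2, 86 and 310 with library totals in place of TMM, 642 and 239 with no filter on low counts, 885 and 683 with the 8 shared second names of the labels as units, 649 and 244 with the 15 columns as units, 6 to 973 and 0 to 113 when 1 sample was left out, and 0 and 0 (edgeR) with a mean of at least 10 CPM (1389 of 8504 genes at an unadjusted p under 0.05) or below 60 M (3127 of 29989). At 10 CPM no receptor gene was left to test. With library totals the median over all genes shifted by -1.12 (log2). The receptor genes lower, 4 in the main test, were 18 with DESeq2, 6 with library totals, 2 with no filter, 8 with the shared names, 0 with columns as units, 0 below 60 M and 0 to 1 when 1 sample was left out. Those higher, 0 in the main test, were 1 with DESeq2. The 1 signalling gene higher became 3 with DESeq2, 2 with no filter, 0 at 10 CPM, 0 below 60 M and 0 to 1 when 1 sample was left out. The 1 lower became 0 at 10 CPM, with columns as units, below 60 M and whenever 1 sample was left out. The causes of these changes were not tested.

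The labels share sample numbers 3 and 4 between the groups. The deviations of same-numbered samples from their group means correlated at 0.013 and -0.072 over 24362 genes, so they were taken to share only a number. With the replicate block, 2 genes were higher and 0 lower, and 0 receptor genes were lower (8 of 31 at an unadjusted p under 0.05) and 0 signalling genes passed.

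Below 60 M the family differences in mean log2 CPM were -1.63 (Vmn1r), -2.42 (Taar) and -1.50 (Tas1r). Over all columns, that of Tas2r was -3.76 without Tas2r126 and Tas2r143, an alternative chosen after seeing the data. When 1 sample was left out, Vmn1r ran from -4.49 to -3.02, Taar from -5.14 to -3.89, Tas1r from -4.56 to -2.94 and Tas2r from -1.78 to -0.25. The median number of receptor genes per Olfr2+ column, 47, was 12 when at least 3 counts were asked for and 85 below 60 M. Of 219 log2 fold changes of 18 named genes under the alternatives, 177 kept their direction and side of the threshold. A call was lost in 32 and gained in 6. The 32 were all of Taar3, Taar4, Vmn1r212 and Vmn1r49, which stayed called in 5, 4, 4 and 3 of 12 alternatives. The last 4 changed sign: Tas1r3 (0.49) and Vmn1r32 (0.32) below 60 M, Vmn1r65 (0.30) with the replicate block and Tas2r143 (-4.42) without Olfr2+ sample 4. Tas2r143 ran from -4.42 to 5.96 when 1 sample was left out.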
